A study of Mus musculus with 9 samples.

Results

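The nuclear genes of respiratory complex I, the NADH:ubiquinone oxidoreductase of the mitochondrial inner membrane, were followed at the RNA level in mouse oocytes with 9 arrays. Every gene whose symbol begins with Nduf was taken if a probe set was annotated to that symbol alone, which gave 43 of the 19938 genes named on the array. These 43 genes had 48 such probe sets, and where a gene had 2 of them (5 genes) the brighter on average over the 9 arrays was used. This rule rested on symbols and on that mean, and used no difference between groups, but it was set with earlier results of these data known. Genes were tested if their log2 signal was at least 4 in at least 3 of the 9 arrays, whatever the group; all 43 complex I genes passed, among 17324 genes in all.

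The arrays held metaphase II oocytes, the ovulated egg as it waits for fertilization, from Dicer knockout, Dgcr8 knockout and wild-type C57BL/6 mice, with 3 biological replicates per genotype. All females received 7.5 IU of PMSG to make follicles grow and 7.5 IU of hCG to make them ovulate, and oviducts were taken 14 to 16 h after hCG (16 h in the source labels); cumulus cells were removed with hyaluronidase at 0.3 mg/ml and washing. Dgcr8 is the partner of Drosha in the first cut of microRNA precursors, whereas Dicer makes the second cut and also produces endogenous small interfering RNAs from long double-stranded RNA, so the design sets the loss of both small RNA classes beside the loss of microRNAs. The labels do not give how and in which cells the alleles were deleted, the age of the females or the number of oocytes per array, and the p-values measure the spread between these samples only.

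Each knockout had less RNA of its targeted gene than wild-type oocytes. The Dgcr8 probe set averaged a log2 signal of 5.71 in Dgcr8 knockout oocytes, against 8.96 in wild-type oocytes (log2 change -3.24, limma adjusted p 1.06e-05), and that of Dicer1 averaged 10.72 in Dicer knockout oocytes, against 11.67 in wild-type oocytes (log2 change -0.95, limma adjusted p 1.01e-05). The labels do not say whether these probes lie inside the deleted parts. The array medians lay between 5.48 and 5.58, and any 2 arrays correlated at 0.982 or more over all probe sets. Of 18 oocyte markers, such as zona pellucida genes, 17 had a mean signal above 8, and the list's mean stayed between 11.14 and 11.38 in all 9 arrays; of these markers Zp2 (0.40, adjusted p 0.0199) and Ddx4 (0.62, adjusted p 0.025) were called higher and Kit (-0.36, adjusted p 0.00548) lower in Dicer knockout over wild-type oocytes. Of 27 measured cumulus and granulosa markers 25 were tested. The mean of all 27 lay between 5.23 and 5.30 in Dicer knockout arrays. It lay between 5.21 and 5.31 in Dgcr8 knockout and between 5.25 and 5.29 in wild-type arrays. Of 13 measured immune and blood markers 10 were tested. The mean of all 13 lay between 4.56 and 4.99 in Dicer knockout arrays. It lay between 4.50 and 4.69 in Dgcr8 knockout and between 4.58 and 4.64 in wild-type arrays. For 19 oviduct and stromal markers, all tested, the mean lay between 6.12 and 6.21 in Dicer knockout arrays. In Dgcr8 knockout arrays it lay between 6.15 and 6.32, and in wild-type arrays between 6.24 and 6.27. Within these lists, Gata4, Cd68 and Myh11 were the only non-oocyte markers called in Dicer knockout over wild-type oocytes. Cd68 (0.96, adjusted p 0.011) and Gata4 (0.59, adjusted p 0.014) were higher and Myh11 (-0.46, adjusted p 0.00567) lower. The part of other cells in the results below was not tested.

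Complex I takes electrons from NADH, passes them through a flavin and a chain of iron-sulfur clusters to ubiquinone, and pumps protons across the inner membrane. Its conserved core, shared with bacteria, carries the redox centres in a matrix arm and the pumps in a membrane arm; the nuclear genome encodes the core of the matrix arm and the mitochondrial genome that of the membrane arm. Accessory subunits wrap this core and stabilise it, and assembly factors help to build it but leave the finished enzyme. Oocytes hold many mitochondria, oxidise pyruvate, and transcribe little once fully grown, so that their RNA at metaphase II is mostly a maternal store. The names follow this only in part: Ndufs and Ndufv hold 6 of the measured core subunits (Ndufs1, Ndufs3, Ndufs7, Ndufs8, Ndufv1 and Ndufv2) and 4 accessory ones. In turn, Ndufa4, now assigned to cytochrome c oxidase, and its relative Ndufa4l2 stay in the totals over all 43 genes and in counts by symbol. They are not counted as core or accessory subunits below. This leaves 28 accessory subunits and 7 assembly factors (Ndufaf1 to Ndufaf7). The mitochondrially encoded subunits were not analysed here.

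Promoters of complex I genes are known to bind NRF1, a factor that controls many nuclear genes of the respiratory chain. The word CGCANGCG, the centre of its motif, was searched on both strands from 250 bases before to 50 after the starts in the RefSeq promoter table (GRCm38.p6), which held 40 promoters of 38 complex I genes. It was present for 12 of the 38 genes (31.6%), against 15.1% of the 13642 tested genes with a promoter and 9.22% of all genes of the table. Shown are the 120 bases upstream of the start of the 3 genes that hold the word there and had the largest changes reported below, and of Ndufaf4, an assembly factor that holds it and was not called. Capitals mark the word; Ndufs5 lies at chr4:123718187-123718306 (minus strand), Ndufa5 at chr6:24527691-24527810 (minus), Ndufa11 at chr17:56717642-56717761 (plus) and Ndufaf4 at chr4:24897963-24898082 (plus), each read 5′ to 3′ along its gene.
Ndufs5: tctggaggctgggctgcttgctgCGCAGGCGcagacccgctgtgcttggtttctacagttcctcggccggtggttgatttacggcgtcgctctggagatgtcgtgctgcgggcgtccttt
Ndufa5: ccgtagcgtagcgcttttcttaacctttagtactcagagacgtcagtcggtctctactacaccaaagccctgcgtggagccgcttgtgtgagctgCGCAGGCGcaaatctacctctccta
Ndufa11: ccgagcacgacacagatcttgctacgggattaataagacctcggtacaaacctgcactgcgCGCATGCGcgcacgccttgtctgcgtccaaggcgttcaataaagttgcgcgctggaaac
Ndufaf4: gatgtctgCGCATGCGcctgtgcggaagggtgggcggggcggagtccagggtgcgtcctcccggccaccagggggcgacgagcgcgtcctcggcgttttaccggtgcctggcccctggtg
Relative to the start, the word begins at position -97 in Ndufs5, -25 in Ndufa5, -59 in Ndufa11 and -112 in Ndufaf4. From another start of Ndufa5 in the promoter table, not shown, it begins at -189. In Ndufa11 and Ndufaf4 the word reads the same on both strands. Among the genes called higher in Dicer knockout oocytes it was found for 6 of the 13 with a promoter, and among the others for 6 of 25. The word CCGGAAG, bound by ETS factors such as GABP, was found for 5 of 38 complex I genes (13.2%) and 15.2% of tested genes, and the word AAGATGGC of YY1 for 7 of 38 (18.4%) and 4.1% of tested genes. A match is a run of letters and was not tested as a site of binding.

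RNA of many complex I subunits was higher in Dicer knockout than in wild-type oocytes, and all those called were accessory subunits. Of the 43 genes 15 rose and 0 fell (34.9% called higher; limma p under 0.05 after Benjamini-Hochberg adjustment over the whole table), whereas 4.87% of the 17324 genes tested were called higher and 6.47% lower. A rise of at least 2-fold was called for 10 of them (23.3%), against 1.56% of all genes tested. The median log2 change of the 43 genes was 0.50, with 36 above 0 and 7 below, and that of all genes tested was -0.03; the changes ran from -0.21 (Ndufb2) to 1.90 (Ndufa5). All 3 Dicer knockout arrays lay above all 3 wild-type arrays for 20 of the 43 genes (46.5%), against 10.0% of all genes tested. Without Dicer knockout replicate 3 the count of called genes was 25, and without wild-type replicate 3 it was 9. In such bulk samples, a difference in the make-up of cells and a difference in RNA per cell cannot be told apart.

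**Figure D1:**
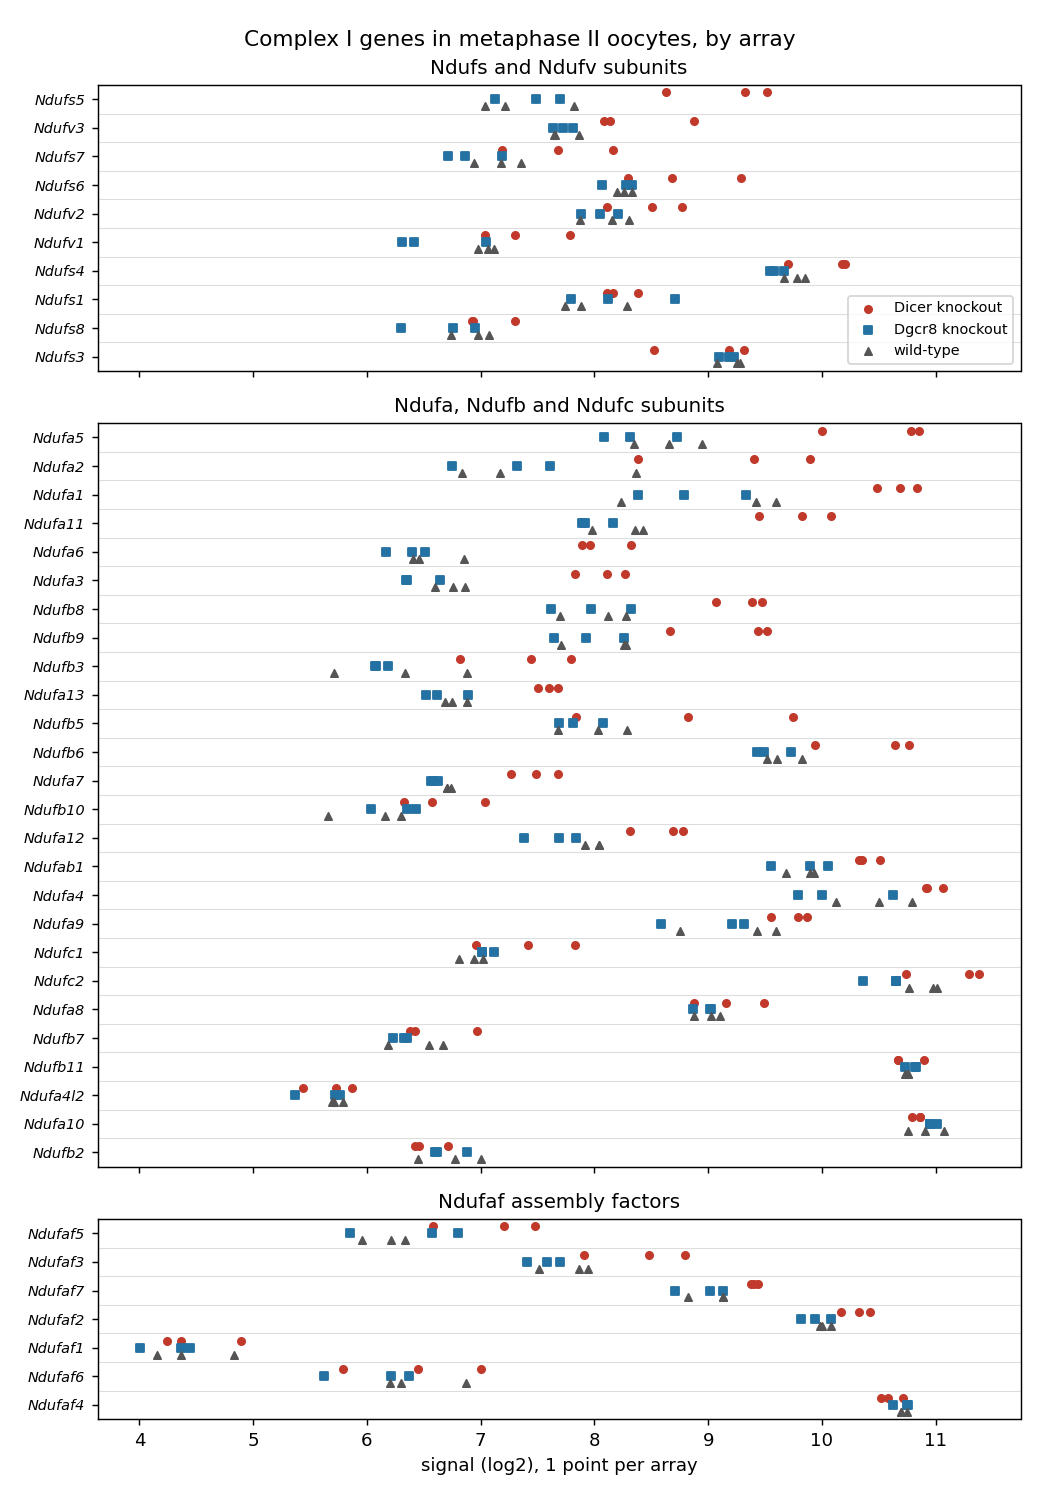
Log2 signal (x axis) of each of the 43 complex I genes (rows, by class, ordered by change in Dicer knockout over wild-type oocytes) in each array: red circles, Dicer knockout; blue squares, Dgcr8 knockout; grey triangles, wild-type (3 arrays each). Levels of different genes come from different probes and are not comparable; within a row, the red circles stand right of both other groups for most Ndufa genes, while the Dgcr8 knockout and wild-type arrays mostly overlap.

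For the core subunits of the matrix arm the counts of called genes were near those of all genes tested. Their median log2 change in Dicer knockout over wild-type oocytes was 0.28, against -0.03 for all genes tested. Of the 6 genes 5 were above 0, against 7293 of the 17324 genes tested. By limma 0 of 6 were called, against 4.87% of all genes tested as higher. An unadjusted limma p under 0.05 was found for 1 of 6 (16.7%), against 23.7% of all genes tested. That gene was Ndufs7, which carries the last iron-sulfur cluster before ubiquinone, with log2 signals of 8.16, 7.68 and 7.19 in Dicer knockout, 6.71, 6.86 and 7.19 in Dgcr8 knockout and 7.36, 7.18 and 6.94 in wild-type arrays. Its Dicer knockout and wild-type values overlap, and the change of 0.52 had an adjusted p of 0.198, but of 0.039 without Dicer knockout replicate 3. Ndufv1, which binds NADH and the flavin, measured 7.78, 7.30 and 7.04 in Dicer knockout, 6.41, 6.31 and 7.05 in Dgcr8 knockout and 6.98, 7.11 and 7.06 in wild-type arrays. Its wild-type values lie close together and overlap the Dicer knockout values (log2 change 0.32, adjusted p 0.439). Ndufs3, a subunit near the ubiquinone site, measured 9.18, 9.31 and 8.53 in Dicer knockout, 9.09, 9.23 and 9.18 in Dgcr8 knockout and 9.08, 9.25 and 9.28 in wild-type arrays, so that Dicer knockout replicate 3 alone was low. The 95% interval of its change, -0.58 to 0.18, holds no rise of the size seen in the called genes; its second probe set gave a difference of -0.19. The iron-sulfur subunits Ndufv2, Ndufs1 and Ndufs8 had changes of 0.35, 0.24 and 0.12, with adjusted p of 0.252, 0.590 and 0.764.

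Accessory subunits carried all 15 calls. Their median log2 change was 0.70, with 15 of 28 called higher and 25 of 28 above 0. Of the 13 named Ndufa, 10 were called (median 0.82), of the 9 named Ndufb 4 (median 0.80), of the 2 named Ndufc 0 and of the 4 named Ndufs or Ndufv 1, Ndufs5. By symbol alone, this makes 1 of 10 Ndufs and Ndufv genes, 14 of 26 Ndufa, Ndufb and Ndufc genes and 0 of 7 Ndufaf genes; whether the classes differ was not tested, since genes are no replicates of a condition. Without 1 array at a time, the counts ranged from 1 to 5, from 8 to 17 and from 0 to 3 in these classes.

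Ndufa5, a subunit of the matrix arm, had the largest change. Its log2 signals were 10.85, 10.79 and 10.00 in Dicer knockout, 8.31, 8.09 and 8.72 in Dgcr8 knockout and 8.94, 8.65 and 8.35 in wild-type arrays. Every Dicer knockout array stood more than 1 log2 unit above every other array, and the change over wild-type oocytes was 1.90 ± 0.24 (SE, n = 3 per group; limma adjusted p 0.000844). Ndufs5, a small protein on the intermembrane side of the membrane arm, measured 9.32, 9.52 and 8.63 in Dicer knockout, 7.70, 7.13 and 7.49 in Dgcr8 knockout and 7.82, 7.21 and 7.04 in wild-type arrays. Its Dicer knockout arrays were again above all others (1.80 ± 0.26, SE; limma adjusted p 0.0017). The genome also holds a copy named Ndufs5-ps, and how far its RNA adds to this signal was not tested.

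Ndufa2, of the NADH-oxidising end, measured 9.90, 9.40 and 8.38 in Dicer knockout, 6.75, 7.32 and 7.61 in Dgcr8 knockout and 8.37, 7.17 and 6.83 in wild-type arrays. Dicer knockout replicate 3 and wild-type replicate 1 nearly meet, and the change of 1.77 ± 0.45 (SE; limma adjusted p 0.0297) was not called under 6 of 18 alternatives (highest adjusted p 0.117, without wild-type replicate 3). Ndufa1, a small membrane protein needed for assembly of the enzyme, measured 10.69, 10.83 and 10.48 in Dicer knockout, 8.39, 8.78 and 9.33 in Dgcr8 knockout and 9.59, 9.42 and 8.23 in wild-type arrays. The Dicer knockout arrays lay together above a wide spread in both other genotypes (1.59 ± 0.33, SE; limma adjusted p 0.0127).

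Ndufa11, a multi-pass membrane subunit, measured 10.08, 9.83 and 9.44 in Dicer knockout, 7.91, 7.89 and 8.16 in Dgcr8 knockout and 8.42, 8.36 and 7.97 in wild-type arrays. Its change was 1.53 ± 0.17 (SE; limma adjusted p 0.00034), and its second probe set gave a difference of 1.83. Ndufa6, of the LYR family of proteins that bind the acyl carrier protein, measured 8.32, 7.89 and 7.96 in Dicer knockout, 6.40, 6.16 and 6.51 in Dgcr8 knockout and 6.85, 6.46 and 6.40 in wild-type arrays. All 3 Dicer knockout values exceed the other 6 by a wide margin (1.49 ± 0.16, SE; limma adjusted p 0.000269). Ndufa3, a single-pass membrane subunit, measured 8.11, 8.27 and 7.83 in Dicer knockout, 6.65, 6.35 and 6.34 in Dgcr8 knockout and 6.75, 6.86 and 6.60 in wild-type arrays. The spread within each genotype was small beside the change of 1.33 ± 0.14 (SE; limma adjusted p 0.000226), the lowest adjusted p among the 43 genes.

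Ndufb8, Ndufb9, Ndufb3 and Ndufb6, of the membrane arm, were the called genes named Ndufb. Ndufb8 measured 9.47, 9.39 and 9.07 in Dicer knockout, 7.97, 7.62 and 8.32 in Dgcr8 knockout and 8.28, 8.12 and 7.70 in wild-type arrays, with the Dicer knockout values above all others (1.28 ± 0.20, SE; limma adjusted p 0.00247). Ndufb9, another LYR protein, measured 9.52, 9.44 and 8.67 in Dicer knockout, 7.64, 7.93 and 8.26 in Dgcr8 knockout and 8.27, 8.26 and 7.71 in wild-type arrays. Its Dicer knockout replicate 3 was the closest to the other genotypes (1.13 ± 0.25, SE; limma adjusted p 0.0159), and the call was lost without Dicer knockout replicate 1 (adjusted p 0.0664) or wild-type replicate 3 (adjusted p 0.0674). Ndufb3 measured 7.44, 7.80 and 6.81 in Dicer knockout, 6.19, 6.07 and 6.08 in Dgcr8 knockout and 6.88, 6.34 and 5.72 in wild-type arrays. It was called (1.04 ± 0.29, SE; limma adjusted p 0.0468) although Dicer knockout replicate 3 lay below wild-type replicate 1, and was not called under 12 of 18 alternatives. Ndufb6 measured 10.64, 10.76 and 9.94 in Dicer knockout, 9.43, 9.49 and 9.73 in Dgcr8 knockout and 9.83, 9.51 and 9.60 in wild-type arrays. The lowest Dicer knockout array stood just above the highest wild-type one (0.80 ± 0.19, SE; limma adjusted p 0.0219), and the call was lost under 5 of 18 alternatives (highest adjusted p 0.086).

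Ndufa13, also known as GRIM-19, measured 7.68, 7.60 and 7.50 in Dicer knockout, 6.52, 6.62 and 6.89 in Dgcr8 knockout and 6.88, 6.68 and 6.75 in wild-type arrays. These Dicer knockout values were tightly grouped above the rest (0.82 ± 0.11, SE; limma adjusted p 0.00138). The other called genes were Ndufa7 (0.76, adjusted p 0.00154), Ndufa12 (0.60, adjusted p 0.0253; lost under 5 of 18 alternatives) and Ndufab1, the mitochondrial acyl carrier protein (0.57, adjusted p 0.0133; 0.0605 without wild-type replicate 3). Of the 15 calls, 9 were made under every one of the 18 alternatives, those of Ndufa1, Ndufa3, Ndufa5, Ndufa6, Ndufa7, Ndufa11, Ndufa13, Ndufb8 and Ndufs5.

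Other accessory subunits gave smaller or less even differences. Ndufb5 measured 9.74, 8.82 and 7.84 in Dicer knockout, 7.81, 7.69 and 8.07 in Dgcr8 knockout and 8.28, 7.68 and 8.04 in wild-type arrays. Its Dicer knockout arrays spanned nearly 2 log2 units, so that a mean change of 0.80 was not called (adjusted p 0.24). The matrix arm subunits Ndufs6 (0.49, adjusted p 0.170), Ndufs4 (0.26, adjusted p 0.227) and Ndufa9 (0.48, adjusted p 0.251), and Ndufc1 (0.47, adjusted p 0.141), Ndufc2 (0.22, adjusted p 0.466), Ndufa8 (0.17, adjusted p 0.536) and Ndufb7 (0.12, adjusted p 0.755) of the membrane arm, overlapped between Dicer knockout and wild-type arrays. For Ndufv3 (0.64, adjusted p 0.0526) and Ndufb10 (0.61, adjusted p 0.10) the 3 Dicer knockout arrays were above the 3 wild-type arrays without a call. Ndufb11, Ndufa10 and Ndufb2 had intervals that hold no rise of more than a small size: -0.14 to 0.14, -0.23 to 0.09 and -0.55 to 0.13. Of the genes set apart, Ndufa4 had a change of 0.50 (adjusted p 0.172) and Ndufa4l2 of -0.05 (adjusted p 0.880).

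Of the 7 assembly factors 0 were called by limma in Dicer knockout over wild-type oocytes, against 4.87% of all genes tested as higher, and 4 (57.1%) had an unadjusted p under 0.05, against 23.7%. Their median log2 change was 0.29. Ndufaf5, which hydroxylates an arginine of Ndufs7, measured 7.48, 7.20 and 6.58 in Dicer knockout, 5.85, 6.57 and 6.80 in Dgcr8 knockout and 6.33, 6.22 and 5.96 in wild-type arrays. The 3 Dicer knockout arrays were above the wild-type arrays, with a change of 0.92 and an adjusted p of 0.0547. Ndufaf4, which acts with Ndufaf3 on the ubiquinone-binding part, measured 10.71, 10.52 and 10.58 in Dicer knockout, 10.62, 10.74 and 10.76 in Dgcr8 knockout and 10.70, 10.70 and 10.75 in wild-type arrays. Its values hardly varied, and the interval of its change, -0.24 to 0.02, leaves no room for a rise like that of the accessory subunits. The changes of Ndufaf3 (0.62), Ndufaf7, a methyltransferase (0.38), and Ndufaf2, a relative of Ndufa12 (0.29), had adjusted p of 0.0882, 0.0704 and 0.0527. Ndufaf1, which builds part of the membrane arm, and Ndufaf6 had changes of 0.05 and -0.04 (adjusted p 0.937 and 0.963). The count of 0 depends on the settings: 3 assembly factors were called with a signal floor of 6 (Ndufaf2, Ndufaf5 and Ndufaf7), without Dicer knockout replicate 3 (Ndufaf2, Ndufaf3 and Ndufaf5) and without Dgcr8 knockout replicate 1 (Ndufaf2, Ndufaf5 and Ndufaf7).

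**Figure D2:**
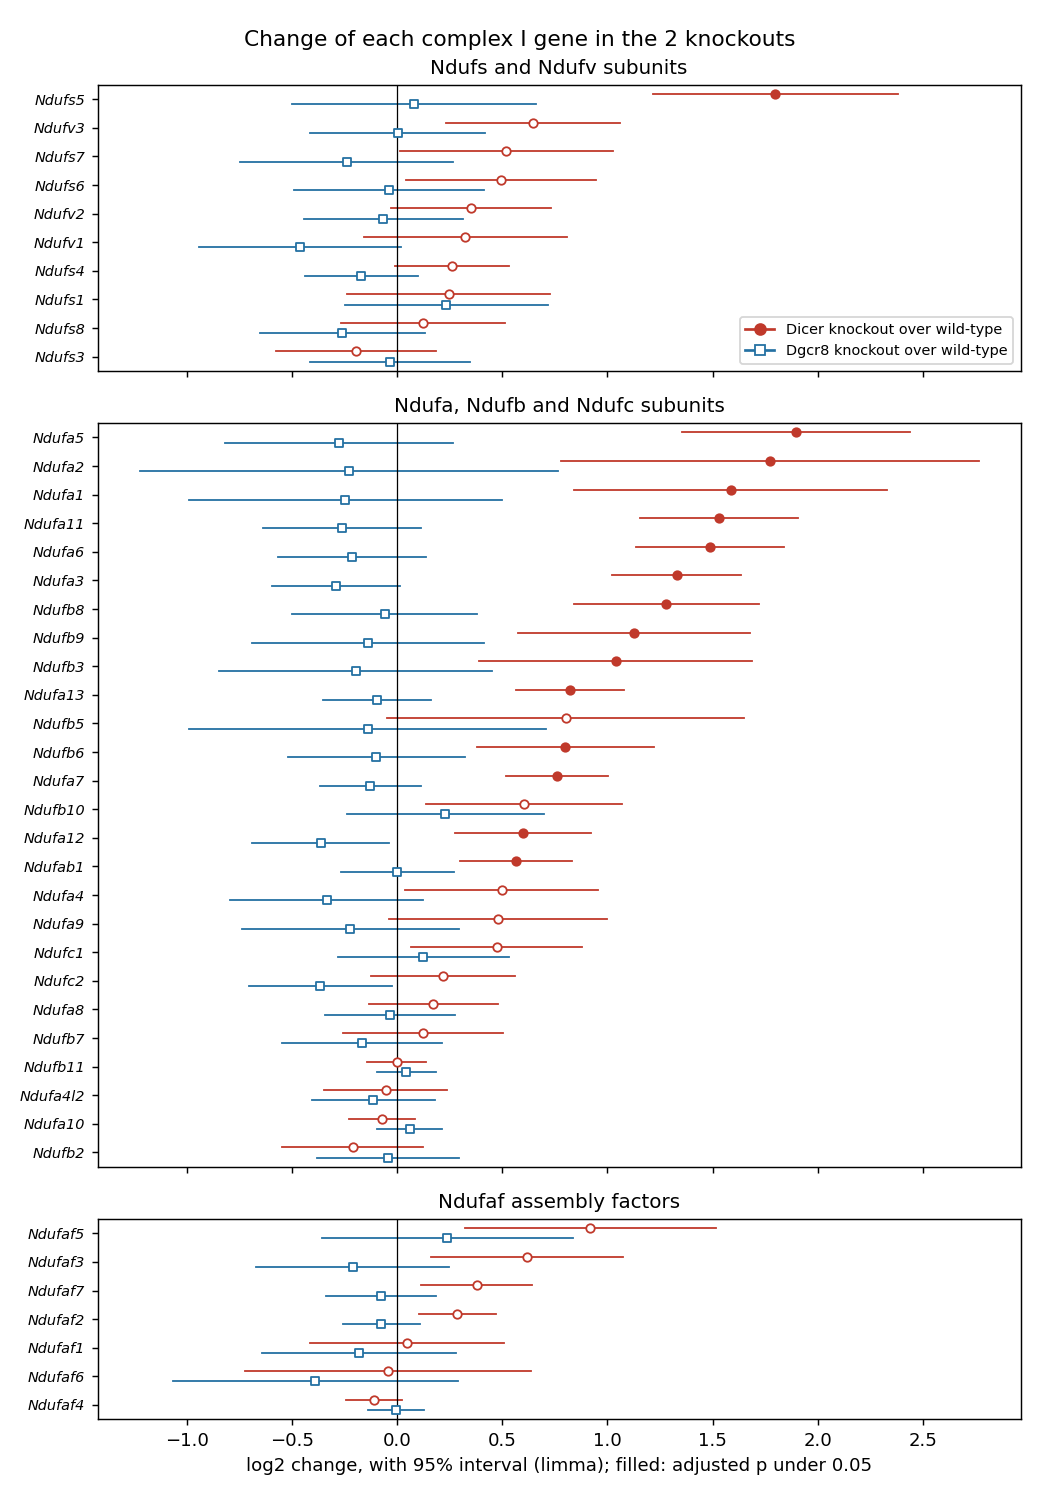
Log2 change with its 95% limma interval (x axis) for each complex I gene (rows, by class) in Dicer knockout over wild-type (red circles) and Dgcr8 knockout over wild-type oocytes (blue squares); filled symbols have an adjusted p under 0.05. The 15 filled symbols are all red, 14 of them among Ndufa and Ndufb genes and 1 for Ndufs5, and both comparisons use the same wild-type arrays.

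Loss of Dgcr8 alone gave no called change in complex I genes. In Dgcr8 knockout over wild-type oocytes 0 of 43 genes were called in either direction by limma, with 2 of 43 at an unadjusted p under 0.05; over all genes tested 0.0173% were called higher and 0.00577% lower, with 457 of 17324 at an unadjusted p under 0.05. The median log2 change was -0.13 for the complex I genes, with 9 above 0 and 34 below, and -0.003 for all genes tested. For 41 of the 43 genes the 95% interval lay within 1 log2 unit of 0, which leaves no room for a change of 2-fold. Room for smaller changes differed by gene: the interval was -0.14 to 0.13 for Ndufaf4 and -0.99 to 0.71 for Ndufb5. Ndufa12 (-0.36, p 0.0314) and Ndufc2 (-0.37, p 0.0383) were the 2 genes at an unadjusted p under 0.05, both with a limma adjusted p of 1. All 3 Dgcr8 knockout arrays were below all 3 wild-type arrays for 3 genes (Ndufa7, Ndufa12 and Ndufc2; 6.98%), against 3.02% of all genes tested, and above them for 0, against 3.52%. Ndufa3 had a change of -0.29 with an interval of -0.60 to 0.01.

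Set directly against each other, the 2 knockouts differed for 23 of 43 complex I genes, all higher in Dicer knockout than in Dgcr8 knockout oocytes (53.5%; over all genes tested 5.48% were called higher and 7.92% lower). The median log2 difference was 0.64, against -0.02 over all genes tested, and the 3 Dicer knockout arrays were above the 3 Dgcr8 knockout arrays for 24 genes (55.8%), against 10.2% of all genes tested. This comparison uses the same Dicer knockout arrays as that with wild-type oocytes and is no independent evidence. Ndufa5 differed by 2.17 (adjusted p 0.000349), Ndufa2 by 2.00 (0.0153), Ndufs5 by 1.72 (0.00206) and Ndufa3 by 1.62 (5.6e-05). Of the core subunits only Ndufv1 was called (0.79, adjusted p 0.039), of the assembly factors Ndufaf2 (0.36, adjusted p 0.0173), Ndufaf3 (0.83, adjusted p 0.0244) and Ndufaf7 (0.46, adjusted p 0.0299), and of the accessory subunits 18 of 28. Ndufa4 was called too (0.83, adjusted p 0.0244). Several of these calls were lost under some of the 18 alternatives: Ndufv1 under 10, Ndufaf7 under 7, Ndufaf3 under 6, Ndufaf2 and Ndufa4 under 5 each, and the accessory subunits Ndufs4 and Ndufv3 under 11 each, Ndufc2 under 7, Ndufb3 under 5 and Ndufa2 under 2. The count of assembly factors was 0 without Dicer knockout replicate 1, Dgcr8 knockout replicate 1 or Dgcr8 knockout replicate 2. The count was 13 without Dicer knockout replicate 1 or without Dgcr8 knockout replicate 1, and 14 without Dgcr8 knockout replicate 2.

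The shift was uneven between arrays of a genotype. Measured from each gene's wild-type mean, the median deviation of the 28 accessory subunits was 0.99, 0.80 and 0.34 in Dicer knockout replicates 1, 2 and 3. In Dgcr8 knockout replicates 1, 2 and 3 it was -0.16, -0.15 and 0.03, and in the wild-type replicates 0.13, 0.01 and -0.14. The 6 core subunits gave 0.53, 0.19 and -0.002 in the Dicer knockout arrays, and the 7 assembly factors 0.44, 0.31 and 0.13, while the median of all genes tested stayed between -0.04 and 0.01 in every array. Dicer knockout replicate 3 was the lowest of its group for 34 of the 43 genes, and for 26.9% of all genes tested. Dgcr8 knockout replicate 3 was the highest of its group for 28 of the 43 genes (30.6% of all genes tested), and wild-type replicate 3 the lowest of its group for 28 (25.7%). The median SD of the complex I genes within a genotype was 0.319 over the Dicer knockout arrays (0.118 for all genes tested), 0.193 over the Dgcr8 knockout arrays (0.108) and 0.190 over the wild-type arrays (0.084). What sets these arrays apart was not tested.

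**Figure D3:**
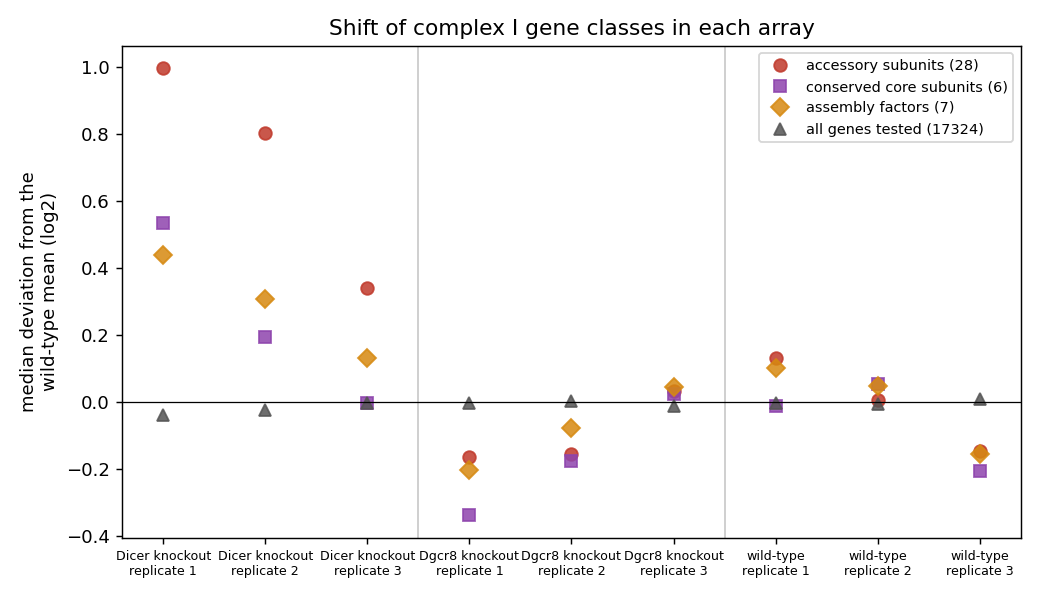
Median deviation from the wild-type mean (y axis, log2) of accessory subunits (red circles), conserved core subunits (purple squares), assembly factors (orange diamonds) and all genes tested (grey triangles) in each of the 9 arrays (x axis). The 3 Dicer knockout arrays differ, with accessory subunits at 0.99, 0.80 and 0.34, and all genes tested stay near 0 throughout.

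Of 67 tested genes that work beside complex I, 5 rose (7.46%) and 4 fell (5.97%) in Dicer knockout over wild-type oocytes, shares near those of all genes tested (4.87% and 6.47%). Of 11 tested assembly factors with other names, 1 was called higher and 0 lower (median log2 change -0.03): Timmdc1, which acts on the membrane arm, rose by 0.66 (adjusted p 0.0104). Of 11 genes of iron-sulfur cluster assembly, 1 was called higher and 0 lower (median 0.06), namely Nfu1, a late-acting cluster carrier (0.29, adjusted p 0.00678). Of 14 genes of pyruvate oxidation and the citric acid cycle, which supply NADH, 0 were called higher and 2 lower (median -0.02); these were Pdha1 (-0.45, adjusted p 0.00761) and Dlat (-0.41, adjusted p 0.009), subunits of pyruvate dehydrogenase. Of 16 genes listed for other entry points and users of the respiratory chain, 1 was called higher and 2 lower (median 0.07). Etfdh, which passes electrons from fatty acid oxidation to ubiquinone, rose by 0.52 (adjusted p 0.0221), while Uqcrfs1, the Rieske protein of complex III (-0.54, adjusted p 0.0068), and Uqcc1, a complex III assembly factor (-0.54, adjusted p 0.00728), fell. Of 15 regulators of mitochondrial biogenesis, 2 were called higher and 0 lower (median -0.02): Twnk, the mitochondrial DNA helicase (0.70, adjusted p 0.00465), and Yy1, a transcription factor (0.65, adjusted p 0.0327). In Dgcr8 knockout over wild-type oocytes no gene of these lists was called.

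Over the 9 arrays the genes whose signal followed that of Ndufa3 most closely were Grcc10 (Pearson r 0.9921), Use1 (0.9909), Lgals1 (0.9835), Atp5mpl (0.9828) and 2300009A05Rik (0.9823), none of them a complex I gene. Among complex I genes Ndufa11 came closest (r 0.9733, rank 16 of all genes tested), then Ndufa7 (0.9683, rank 25) and Ndufa5 (0.9658, rank 36). These correlations run over arrays that share the step between Dicer knockout and the other oocytes, and are a description.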

How the data were processed

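RNA of 9 oocyte samples was measured on 1 array each. The deposited values are log2 signals per probe set, made by the authors with GCRMA per the submitters' processing notes (background correction by probe sequence, normalization between arrays, summary of probes); the notes give neither version nor settings. They ran from 1.046 to 13.314 and are relative between arrays, so that a change shared by all transcripts would not show. No further normalization was applied. Of 35557 probe sets, the platform annotation (which can be old) names 1 gene for 21789, several for 1621 and leaves 12147 unnamed here; 21698 matched GRCm38.p6 by Entrez identifier.

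Tests were two-sided and used limma 3.58.1 (R 4.3.3), lmFit and eBayes, the last with its trend and robust options on, fitted once to the 9 arrays of all genotypes without covariates, and a gene was called at a Benjamini-Hochberg adjusted p under 0.05 over the 17324 genes tested. Every SE comes from this fit, which was tested on simulated data, and so does every adjusted p unless an alternative is named beside it. The simulated noise was independent between genes and equally wide in all genotypes, so genes that vary together in an array were not covered. The number of arrays limits the precision. Values for every array are given for Ndufa3 and the 12 called genes with the largest change in Dicer knockout over wild-type oocytes, and for further genes (Ndufs7, Ndufv1, Ndufs3, Ndufaf5, Ndufaf4 and Ndufb5) chosen after their values were seen. The genes, lists, motifs and tests were chosen with earlier results of these data known. As alternatives the thresholds, the filter, the scaling, the choice of probe set and the eBayes options were changed, arrays were weighted or left out, and the replicate number was added as a block. A description of protein lengths that was planned was not run, since no protein sequences were used here.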

Additional observations from a re-analysis of the deposited data

Results flagged for a closer look

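A probe set annotated to both Ndufs5 and its copy Ndufs5-ps, which the choice of genes left out because it has 2 symbols, was high in Dicer knockout oocytes in the same way as Ndufs5 itself. Its log2 signal was 9.05 ± 0.56 in Dicer knockout, 7.08 ± 0.16 in Dgcr8 knockout and 7.26 ± 0.38 in wild-type oocytes (SD, n = 3 each), and all 3 Dicer knockout arrays lay above all 3 wild-type arrays. The difference of 1.79 between Dicer knockout and wild-type means was not tested.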

How the results depend on the processing

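No median and no direction of a count reversed under any of the alternatives. With 1 array left out in turn, the complex I genes called ranged from 9 to 25 in Dicer knockout over wild-type (15 with all arrays), stayed at 0 in Dgcr8 knockout over wild-type and ranged from 13 to 27 in Dicer knockout over Dgcr8 knockout oocytes (23 with all arrays). The highest count in both of these came without Dicer knockout replicate 3; the cause was not tested. Medians ranged from 0.39 to 0.70 in Dicer knockout over wild-type, from -0.19 to -0.04 in Dgcr8 knockout over wild-type and from 0.48 to 0.78 in Dicer knockout over Dgcr8 knockout oocytes. At an adjusted p under 0.01 the counts were 8 in Dicer knockout over wild-type and 11 in Dicer knockout over Dgcr8 knockout, and 10 calls of Dicer knockout over Dgcr8 knockout reached 2-fold. The labels do not say whether the replicate numbers pair the arrays. Deviations of same-numbered arrays correlated between -0.235 and 0.112, and those of arrays with different numbers reached 0.255. Only 1 of 9 arrays correlated best with its own number in both other groups. With so few arrays these values cannot decide whether same-numbered samples were handled together. With the replicate number as a block, 15 genes were called in Dicer knockout over wild-type, 0 in Dgcr8 knockout over wild-type and 21 in Dicer knockout over Dgcr8 knockout oocytes. Of the calls, 9 of 15 in Dicer knockout over wild-type and 13 of 23 in Dicer knockout over Dgcr8 knockout were made under all 18 alternatives.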

Other observations

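Outside the chosen genes, 2 probe sets annotated to both Ndufb4 and Ndufb4b, a membrane arm subunit and its copy, differed by 0.40 and 0.36 (log2) between Dicer knockout and wild-type means. In the promoters, all 7 matches of the YY1 word lay on the gene's own strand and after the start, as did 250 of 603 matches (41.5%) over all genes tested. Across the 43 complex I genes, the SD over the 3 Dgcr8 knockout arrays and the log2 change in Dicer knockout over wild-type oocytes correlated at a Pearson r of 0.34 and a Spearman rho of 0.317, and across all genes tested at 0.113 and 0.069. Genes are no independent replicates, and this relation was chosen after the data were seen.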
